A study of Caenorhabditis elegans with 4 samples.

Results

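The NHR-11 binding sites on the X chromosome of Caenorhabditis elegans comprised 1032 of the 6799 sites in the series-level list, which covers 6 chromosomes. They were taken as every site that this list places on X. The lists of the ChIP replicates held 445 X sites of 2612 in replicate 1 and 474 of 2834 in replicate 2. The sites come from chromatin immunoprecipitation with sequencing (ChIP-seq) of hermaphrodites at L4, the last larval stage, grown at 20 °C. All 4 samples, 2 ChIP and 2 input, are of strain OP305, which has the mutant allele unc119(ed3) and the transgene wgIs305. This transgene encodes nhr-11::TY1 EGFP FLAG together with unc119, was introduced by particle bombardment, and was followed by 3 outcrosses. The tagged protein therefore comes from added copies of the gene, and every sample carries them. The labels do not say that replicates 1 and 2 were separate cultures, so differences between them may be technical. No list from untagged worms was used here, and no list from the input libraries.

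NHR-11 is a nuclear hormone receptor, a class of transcription factor that holds DNA through zinc fingers and in many animals is switched by a lipid-like ligand. The family is much expanded in nematodes, and most of its worm members have no known ligand. The X chromosome of worms is present as a pair in hermaphrodites and singly in males, and in hermaphrodites a dosage compensation complex binds along it and lowers its expression. X holds few genes of the germ line. On the autosomes a gene-rich centre lies between recombining arms, a division that is less marked on X.

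Each site has a start and an end in WormBase build WS220 and 1 significance value from the authors' peak caller. This value, a p-value or q-value that the sources used here do not name further, is given as −log10, so that larger numbers mark stronger sites. It is the authors' own value and ranks sites within a list. That the 3 lists share 1 scale is not stated, so their values are set side by side only. The files give no read counts, so the depth is unknown, and intervals on shares (95%, Clopper-Pearson) cover counting error only. Coordinates are those of the files, and the genes and sequences at them were not analysed here.

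The strongest X site stood far above the rest. At 16929321 to 16931980 on the right arm, its −log10 significance was 204 in the series-level list, 111 in replicate 1 and 102 in replicate 2. It was the first X site of all 3 lists and ranked 3, 2 and 2 among all chromosomes. Its outline hardly moved, with widths of 2660, 2626 and 2632 bp, and its nearest neighbour lay 11980 bp away. The second X site, at 1503018 to 1505223 on the left arm, had 136, 65.5 and 72.8 and was again second in all 3 lists. It too was isolated, with gaps of 16411 and 16810 bp to its neighbours.

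The third site of the series-level list behaved differently. At 4141927 to 4146940 it was 5014 bp wide, the widest on X, with a −log10 value of 110. Each replicate listed a pair of separate sites in its place. In replicate 1 these reached 25.4 on the left and 29.5 on the right, in replicate 2 31.9 on the left and 25.9 on the right, so the higher piece was not the same one. By its better piece the site ranked 12 on X in replicate 1 and 10 in replicate 2. The site at 6740232 to 6744761, the strongest of the centre, was nearly as wide at 4530 bp and was 1 unbroken site in both replicates (4205 and 4316 bp). Its −log10 values were 98.0, 49.3 and 45.8.

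The strongest X sites were not always the widest, though each of the 15 strongest exceeded the upper quartile of width on X, 613.5 bp. The site at 8035879 to 8036931 reached 88.1, 43.5 and 54.7 with a width of 1053 bp. The site at 5840757 to 5841553 reached 75.8, 45.97 and 47.2 with only 797 bp, the narrowest of the 15 strongest, and ranked 4 on X in both replicates. At 11093703 to 11094532 a site of 830 bp had 66.9, 37.99 and 37.0. Among wider ones, the site at 4208329 to 4210063 had 81.8, 39.7 and 44.3, and the site at 13143643 to 13145649 had 73.9, 37.1 and 36.2.

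Among the remaining members of the 15, replicates differed most at 14561400 to 14563023, with 30.3 in replicate 1 and 19.7 in replicate 2, and at 2996347 to 2997612, with 28.8 and 44.2. The sites at 15606581 to 15609281, 10567792 to 10569227 and 16611249 to 16613016 had series-level values of 63.8, 52.4 and 50.8. All 15 were present in both replicates, 13 were 1 kb or wider, and their median width was 1768 bp. They were spread evenly, with 5 on the left arm, 5 in the centre and 5 on the right arm. By their best piece, 10 of them were among the first 15 X sites of both replicates, and the lowest X ranks were 20 in replicate 1 and 34 in replicate 2. The series-level list is not independent of the replicates, because the series holds no other ChIP libraries.

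**Figure D1:**
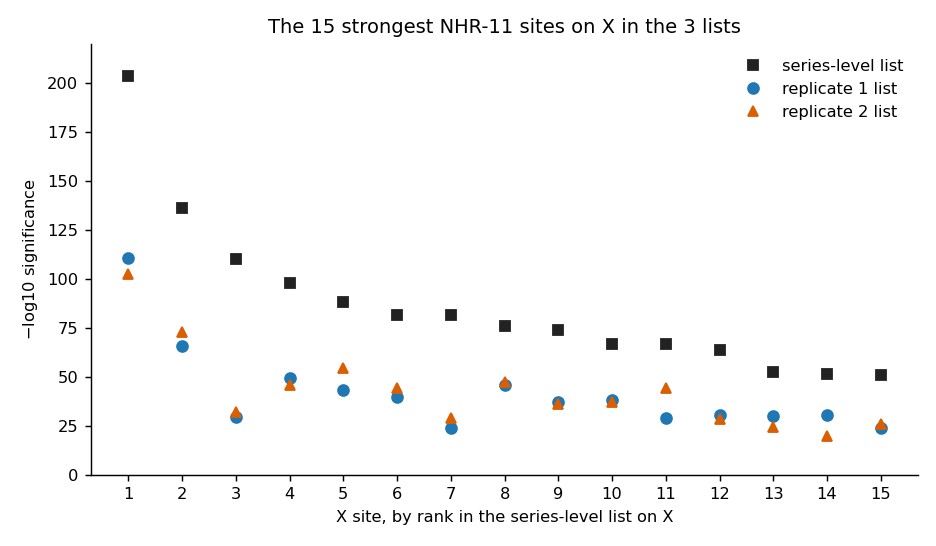
The −log10 significance of the 15 strongest X sites (y axis) by their rank on X in the series-level list (x axis), with squares for that list and circles and triangles for the best overlapping site of replicates 1 and 2. The first site stands at 204, 111 and 102, and at the third and seventh sites the replicate values drop to about those of sites ranked near 15.

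Across all 1032 sites the −log10 values had a median of 5.59 and quartiles of 3.93 and 9.24. The weakest, at 16729070 to 16729170, had 3.00. The median was 5.04 in the replicate 1 list and 4.90 in the replicate 2 list. Of the X sites, 46.2% (43.1 to 49.3) were in the stronger 50% of the series-level list, against 50.7% (49.4 to 52.0) of the sites on chromosomes I to V (Fisher's exact test, adjusted p = 0.0196 over 7 comparisons of X with the other chromosomes). By construction this part held 50.0% of all sites. The difference did not pass in replicate 1, with 49.2% against 50.2% (adjusted p = 0.911, Fisher's exact test), or in replicate 2, with 45.8% against 50.8% (adjusted p = 0.0867). Among the sites found in both replicates the call held with a wider gap, at 40.1% on X against 52.0% elsewhere (adjusted p = 0.000325, Fisher's exact test). Median series-level values of this class were 12.9 on X, 17.8 on I and 19.3 on IV. On II, III and V they were 13.3, 14.6 and 12.7, and the class was not tested without I and IV. At sites that overlapped one to one between replicates 1 and 2, their own medians were 6.34 and 6.24 on X, against 6.22 and 6.47 elsewhere.

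The call over the whole series-level list rested on chromosomes I and IV. Without them the series-level share elsewhere was 47.9% (adjusted p = 0.665, Fisher's exact test). At sites that overlapped 1 site in each replicate, the series-level value divided by the summed replicate values had a median of 1.02 on X (323 sites), 1.40 on I and 1.39 on IV. On II, III and V the median was 1.09, 1.05 and 1.03, near that of X. The part of this scale in the result was not tested. At the top of the replicate lists X was not low: 22 of the first 100 sites of replicate 1 and 28 of the first 100 of replicate 2 lay on X, which held 17.0% and 16.7% of these lists. In the series-level list 16 of the first 100 did, where X held 15.2% of all sites. The strongest 10% took 10.1% of the X sites in each replicate, against 10.0% of the other sites. In the series-level list it took 9.01% of the X sites, 93 of them, against 10.2% of the others (adjusted p = 0.456, Fisher's exact test).

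The share of X sites repeated between replicates did not differ from that elsewhere beyond counting error. Of the replicate 1 X sites, 339 (76.2%, 71.9 to 80.1) overlapped a replicate 2 site by at least 1 bp, and 77.7% of the replicate 1 sites on the other chromosomes did (Fisher's exact test, adjusted p = 0.691). Over all chromosomes this share was 77.5%. Of the replicate 2 X sites, 340 (71.7%, 67.4 to 75.7) overlapped a replicate 1 site, against 71.4% elsewhere and 71.4% over all chromosomes (adjusted p = 0.911, Fisher's exact test). The intervals leave room for a difference of a few percentage points either way.

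Where a pair of X sites overlapped one to one, position and rank were close. There were 330 such pairs. Their midpoints differed by a median of 27.5 bp, their starts by 32 bp and their ends by 36.5 bp, and 294 pairs (89.1%) had midpoints within 100 bp. The overlap took a median of 84.0% of the combined stretch of both sites. Pairs on the other chromosomes were similar, with a median midpoint difference of 30.5 bp, 86.1% within 100 bp and an overlap of 82.3%. Across these pairs the −log10 values had a Spearman's rho of 0.81 and a Pearson's r of 0.95, compared with 0.79 and 0.94 over 1636 pairs on the other chromosomes. The site sets share libraries, and sites are not replicates, so these are descriptions. Values were higher in replicate 1 at 152 of the 330 X pairs and at 745 of the 1636 pairs elsewhere.

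In 9 of 330 X pairs (2.73%) the higher value was over 2 times the lower. This low share was partly fixed in advance. Every list ends at about 3.00 and the pair medians were 6.34 and 6.24, so many pairs could not reach that ratio. The 106 X sites of replicate 1 and 134 of replicate 2 without a partner do not enter it. The share was not computed on the other chromosomes. The largest ratio was at 7193891 to 7194035 in replicate 1, with 3.01 and a width of 145 bp, where replicate 2 had 8.32 and 467 bp. Near the right end of X the site at 17640673 to 17641106 had 11.9 in replicate 1 and 4.97 in replicate 2.

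**Figure D2:**
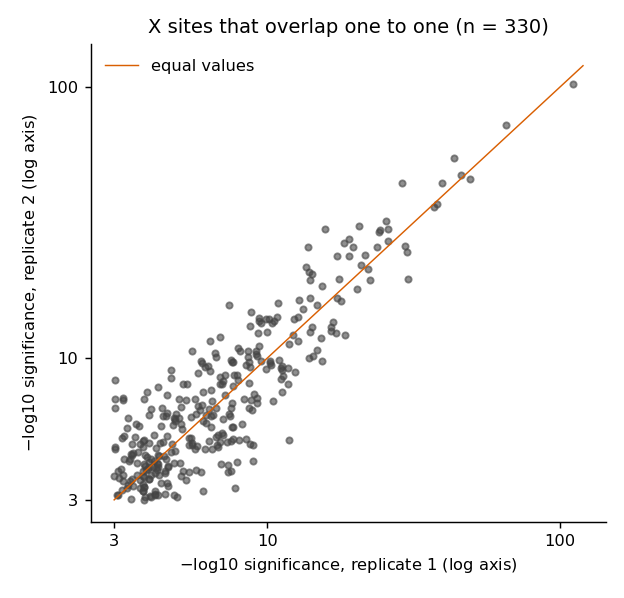
The −log10 significance of the 330 X sites that overlap one to one, replicate 1 on the x axis and replicate 2 on the y axis, both log axes, with a line of equal values. Points follow the line with a Spearman's rho of 0.81 and scatter most below about 10, and no listed site lies below 3.00.

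In the series-level list, 334 X sites (32.4%, 29.5 to 35.3) were found in both replicates, 100 in replicate 1 alone, 124 in replicate 2 alone and 474 (45.9%, 42.9 to 49.0) in neither. On the other chromosomes 7.96% were in replicate 1 alone, 11.2% in replicate 2 alone and 52.1% (50.8 to 53.4) in neither, classes that were not tested. There 28.7% (27.6 to 29.9) were found in both, and over all chromosomes 29.3% (Fisher's exact test of X against the others, adjusted p = 0.0339). The excess on X was lost without chromosomes I and IV, where the share elsewhere was 32.8%, slightly above that on X (adjusted p = 0.911, Fisher's exact test). It also missed the threshold with midpoints within 100 bp as the rule of sharing, at 25.7% against 22.8% (adjusted p = 0.0874, Fisher's exact test).

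Stronger X sites were more often present in both replicates. This order was partly fixed in advance, because the series-level list is not independent of the replicates. Its values were a median of 1.02 times the summed replicate values at X sites that overlapped 1 site in each. Deciles were formed on X only. In the strongest decile of the X sites, from 18.5 upward, 102 of 103 were in both lists, and so were 102 of 103 in the second decile. The share fell to 75.7% (66.3 to 83.6) in the third decile and 39.8% (30.3 to 49.9) in the fourth. In decile 6, from 4.68 to 5.59, it was 2 of 103. In each of deciles 7 to 10 it was 0 of 103 or 104, with an upper limit of at most 3.52% by the same interval. Every list ends at about 3.00, so sites this weak in the series-level list can fall below the limit of the replicate lists, and these shares do not measure how well weak binding repeats. Median widths were 587.5 bp for X sites in both and 292 bp for those in neither, and median −log10 values 12.9 and 3.86.

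A few X sites went against this order. The single exception in the strongest decile was at 7229345 to 7230807, 1463 bp wide with a series-level value of 20.4. Replicate 1 held a part of it with 6.89, its strongest X site without a partner, and the nearest replicate 2 site was 3804 bp away. In replicate 2 the strongest unpartnered X site was at 13177058 to 13177809, with 9.20 and 752 bp. The series-level list had it with nearly the same ends and a value of 13.1. The strongest X site in neither replicate list, at 5387625 to 5388016, reached 7.61 and ranked 341 on X, while on the other chromosomes such sites reached 70.8. Conversely, 3 X sites of replicate 1 and 8 of replicate 2 were not in the series-level list. Their strongest were a site of 74 bp at 1778141 to 1778214 (4.61) and one of 6 bp at 7296578 to 7296583 (3.93).

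Sites on X were wider than sites elsewhere. Their median width was 406 bp in the series-level list (quartiles 271 and 613.5 bp), 442 bp in replicate 1 and 456 bp in replicate 2, against 343, 389 and 391 bp on the other chromosomes. In each list this was the highest median of the 6 chromosomes, with III next at 395, 406 and 410 bp. Of the X sites, 37.3% (34.3 to 40.3) were 500 bp or wider, compared with 25.5% elsewhere (Fisher's exact test, adjusted p = 1.73e-13). In replicate 1 the shares were 41.1% and 30.9% (adjusted p = 0.000136), and in replicate 2 42.0% and 31.3% (adjusted p = 3.83e-05, Fisher's exact tests). Without I and IV the shares elsewhere were 30.02%, 32.4% and 32.8%, and the difference still passed in all 3 lists (adjusted p = 8.12e-05, 0.00439 and 0.00139, Fisher's exact tests). The limit of 500 bp was an alternative to a main limit of 1 kb, and its use in the replicate lists and without I and IV was added after the data had been seen.

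At 1 kb or wider the difference was smaller. This class held 87 X sites (8.43%, 6.81 to 10.3), 6.03% of the sites elsewhere and 6.40% of all sites (adjusted p = 0.0196, Fisher's exact test). Chromosome III had a higher share than X, at 9.61%, and II had 7.69%, V 6.69%, I 5.14% and IV 3.71%. The 1 kb comparison was repeated in other settings. It did not pass in replicate 1, at 8.31% against 7.15% (adjusted p = 0.691), in replicate 2, at 8.86% against 6.65% (adjusted p = 0.164), or without I and IV, at 7.90% elsewhere (adjusted p = 0.828, Fisher's exact tests). Of the 87 wide X sites, 60 were in both replicates, 4 in replicate 1 alone, 14 in replicate 2 alone and 9 in neither. Of the 348 wide sites elsewhere, 265, 23, 19 and 41 fell in these classes in the same order. The sites in replicate 2 alone thus took a larger part on X, a split that was not tested.

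Wider X sites were stronger, with a Spearman's rho between width and −log10 value of 0.57 in the series-level list, 0.54 in replicate 1 and 0.50 in replicate 2 across sites. The extra width was also present at like significance. When each list was divided by significance into 5 groups of equal size, the median X site was wider than the median of the other chromosomes in 5 of 5 groups of every list, and wider than that of II, III and V as well. In the strongest group the medians were 712.5 bp on X and 577 bp elsewhere in the series-level list, 714 and 641 bp in replicate 1, and 734.5 and 588 bp in replicate 2. In the weakest group they were 261 and 207 bp, 350.5 and 302 bp, and 377 and 292.5 bp. Against II, III and V alone, the weakest group of the series-level list differed by little, 261 against 257 bp.

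**Figure D3:**
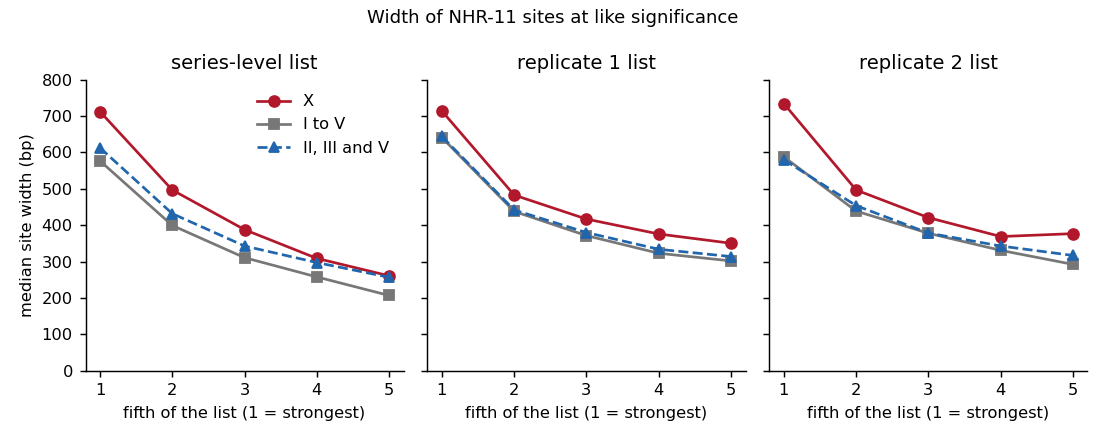
Median site width in bp (y axis) in each of 5 equal groups by significance (x axis, 1 = strongest) of the series-level, replicate 1 and replicate 2 lists, for X (circles), chromosomes I to V (squares) and II, III and V (triangles). The X line lies above both others in 5 of 5 groups of each list, from 712.5 against 577 bp for I to V in the strongest to 261 against 207 bp in the weakest group of the series-level list.

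The widest X sites were often composed of several replicate sites. After the pair of wide sites described above, the next was at 6252025 to 6256112, with 4088 bp and a value of 81.5. Replicate 1 divided it into 3 sites with values of 11.2, 10.6 and 23.8 from left to right. Replicate 2 divided it into 2, with 8.402 for the left and 28.9 for a right piece of 2812 bp. The site at 11472874 to 11476294, 3421 bp wide, had a series-level value of only 21.0, and the replicate pieces reached 7.60 and 3.77 in replicate 1 and 6.83 and 3.68 in replicate 2. The fifth widest, at 2969688 to 2972956 with 3269 bp and 43.6, was 1 site in each replicate, of 1916 and 1172 bp. Division was rare on X, with 7 X sites lying over 2 replicate 1 sites, 1 over 3, and 8 over 2 replicate 2 sites. It was not counted on the other chromosomes. No gap between neighbours was under 207 bp on X in the series-level list. At the other extreme, 35 X sites (3.39%) were under 50 bp, against 4.39% of the sites elsewhere and 4.24% of all sites. The narrowest X site, at 12245979 to 12245980, was 2 bp wide with a value of 5.41.

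Along X, the right arm was the densest in sites. With the left arm ending at 6.137 Mb and the centre at 12.48 Mb, the series-level list held 319 sites on the left arm, 357 in the centre and 356 on the right arm. This gave 52.0, 56.3 and 68.4 sites per Mb, where X was taken to end at the last site, at 17685023. Of the arm sites, 47.3% (43.4 to 51.1) lay on the left, which made up 54.1% of the arms' length (exact binomial test, adjusted p = 0.000751 over 2 tests). Both replicates gave the same picture. The left share was 46.0% in replicate 1 (exact binomial adjusted p = 0.0134) and 46.3% in replicate 2 (adjusted p = 0.0105), with densities of 21.8 against 30.2 and 24.4 against 33.4 sites per Mb. Among sites present in both lists the left share was 46.7%, with an adjusted p of 0.0543 by the exact binomial test. These tests take sites as independent, but counts in 1-Mb bins of X had a variance of 2.99 times their mean. In replicates 1 and 2 this was 1.72 and 1.35 times. The p-values may therefore be too small, and the replicates, which share the same regions, are not separate support for them.

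The share of sites in the centre of X was within counting error of its share of the length. It held 34.6% of the sites (31.7 to 37.6) on 35.9% of the span (exact binomial test, adjusted p = 0.399). In the replicates the share was 34.6% and 31.6% (adjusted p = 0.621 and 0.0555, exact binomial tests). Strength varied little along X, with median series-level values of 5.46 on the left arm, 5.30 in the centre and 5.93 on the right arm, and medians between 4.86 and 5.12 in the replicates. Median widths were 410, 397 and 412.5 bp. The share found in both replicates was 32.9% (27.8 to 38.4), 30.5% (25.8 to 35.6) and 33.7% (28.8 to 38.9), intervals that overlap. The sites nearest the boundaries were at 6136522 to 6136783 and 6194350 to 6194589 for the first, and at 12454182 to 12454567 and 12480358 to 12480782 for the second.

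**Figure D4:**
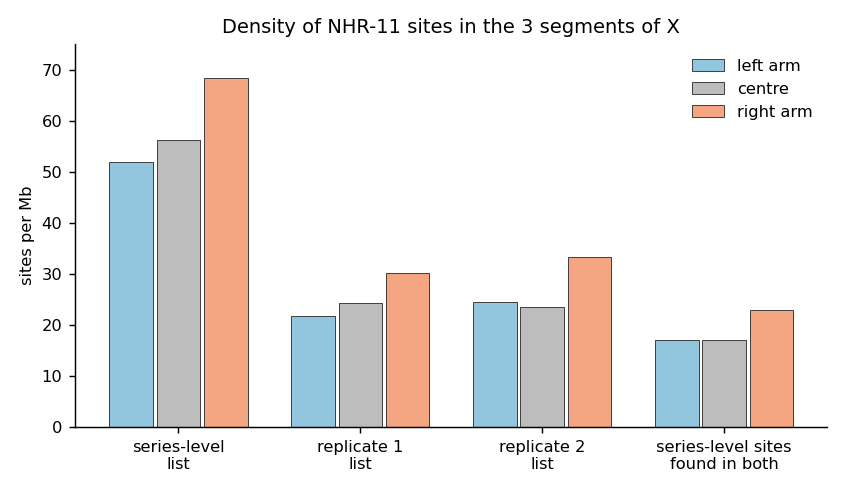
Sites per Mb (y axis, from 0) on the left arm, in the centre and on the right arm of X for the 3 lists and for the series-level sites found in both replicates (x axis). The right arm is the highest bar of each group, at 68.4, 30.2, 33.4 and 23.1 sites per Mb.

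In bins of 1 Mb, X was the most evenly filled chromosome. Its 17 whole bins held 57.9 ± 13.2 sites (SD over bins) in the series-level list, from 29 to 86. The SD was 22.7% of the mean on X and between 29.5% on I and 45.3% on V. In replicate 1 it was 26.3% on X and at least 31.8% elsewhere, in replicate 2 22.6% and at least 33.4%, and in sites found in both 26.5% and at least 33.1%. These are descriptions, since no test was run on them.

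The fullest stretch of X in every list lay between 13 and 14 Mb. It held 86 series-level sites, 40 replicate 1 sites, 42 replicate 2 sites and 30 sites found in both, which is 1.49, 1.61, 1.58 and 1.60 times the mean bin. The next fullest bins held 73, 34, 33 and 26. Its strongest sites were at 13143643 to 13145649, described above, at 13350705 to 13351715 with 44.4, and at 13358425 to 13359115 with 36.7. Sites in it had a median value of 6.22, against 5.59 over X, and a median width of 366 bp. The first megabase was the emptiest, with 29, 14 and 17 sites, though in replicate 2 the stretch from 9 to 10 Mb also held 17. That stretch held 11 sites found in both, the lowest count of that class. Over the 17 bins, counts of the replicates had a Spearman's rho of 0.79, given as a description.

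**Figure D5:**
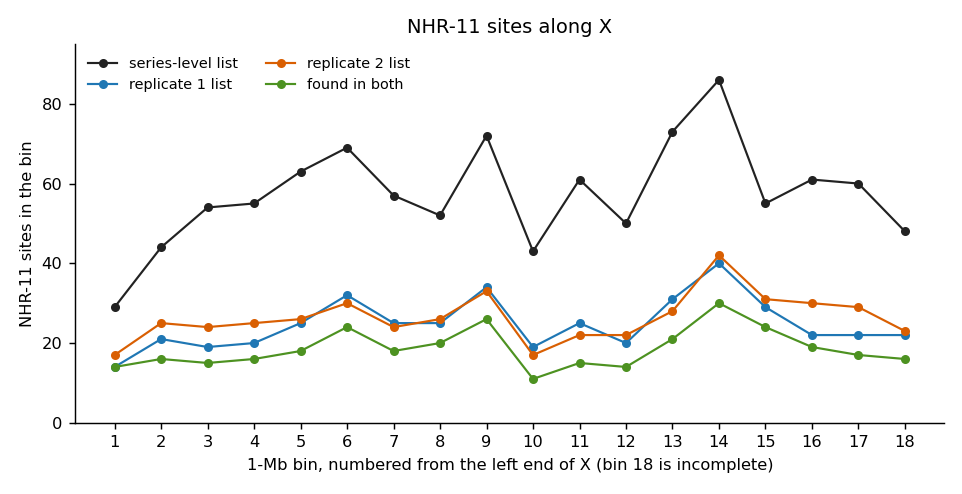
Number of NHR-11 sites (y axis) in each 1-Mb bin numbered from the left end of X (x axis) in the series-level list, in each replicate list and among series-level sites found in both replicates. All 4 lines peak in bin 14, at 86, 40, 42 and 30 sites, and bin 1 is the lowest of each list, level with bin 10 in replicate 2.

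X sites had close neighbours less often than sites of the other 5 chromosomes together, although V had about the same share, at 36.4% of 972 sites, and III had 39.6%. A neighbour within 2 kb was present for 378 X sites (36.6%, 33.7 to 39.7), for 46.8% (45.5 to 48.1) of the sites on the other chromosomes and for 45.2% of all sites (Fisher's exact test, adjusted p = 9.85e-09). In replicate 2 the shares were 21.1% and 30.0% (adjusted p = 0.000514), and in sites found in both 16.8% and 24.7% (adjusted p = 0.00994, Fisher's exact tests). In replicate 1 they were 22.9% and 27.6% (adjusted p = 0.0800), and without I and IV the series-level share elsewhere was 39.5% (adjusted p = 0.202, Fisher's exact tests), so in these the difference did not pass. Site density moved with this share, at 58.4 per Mb on X and 70.0 per Mb elsewhere, and its part was not tested. On X the strongest 10% of the sites had a neighbour in 37.9% of cases (28.5 to 48.0) and the others in 36.5% (33.4 to 39.7), intervals that overlap.

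Joined at gaps of up to 2 kb, the X sites formed 654 single sites, 104 pairs, 30 runs of 3, 15 runs of 4 and 4 runs of 5. The run at 13350705 to 13359115, 8411 bp long, was the only one of these 4 in which all 5 sites were in both replicates. From left to right its series-level values were 44.4, 11.6, 24.5, 8.24 and 36.7, its replicate 1 values 22.2, 4.73, 8.82, 4.16 and 17.3, and its replicate 2 values 21.4, 4.81, 14.7, 3.95 and 16.7. Strong and weak sites thus alternated in the same order in all 3 lists. The run at 6250080 to 6259418 was centred on the divided site of 4088 bp, and its other 4 members had values from 4.0 to 9.46. The runs at 12667655 to 12673836 and 2591427 to 2599335 were weaker, with highest values of 17.3 and 12.6, and 3 of 5 sites of each were in both replicates.

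In the series-level list the median gap on X was 8.399 kb, and 10 gaps exceeded 100 kb. Median gaps elsewhere were 4.699 kb on I, 6.474 on II, 7.853 on III, 3.7465 on IV and 9.685 on V. Gaps over 100 kb numbered 6 on I, 13 on II, 10 on III, 7 on IV and 30 on V. The longest gap on X, of 264.6 kb, exceeded the longest elsewhere, 222.7 kb on V. Of 176 windows of 100 kb on X, 4 held no site (2.27%, 0.623 to 5.72), against 3.05% on the other chromosomes and 2.91% over all (Fisher's exact test, adjusted p = 0.911). In the sparser replicate lists empty windows were less common on X than on the other 5 chromosomes together. The shares were 11.4% against 18.05% in replicate 1 (adjusted p = 0.0485) and 9.09% against 15.4% in replicate 2 (adjusted p = 0.0450, Fisher's exact tests). These shares were not computed per chromosome. Gaps over 100 kb in replicates 1 and 2 numbered 60 and 67 on V and 45 and 44 on X. On IV, nearly as long as X, they numbered 36 and 32. On the shorter I, II and III they numbered 32 and 31, 34 and 30, and 27 and 29. Only V thus had more such gaps than X. The difference did not pass in sites found in both, at 19.9% against 24.4% (adjusted p = 0.336), or in the stronger 50% of the series-level list, at 10.2% against 13.9% (adjusted p = 0.309, Fisher's exact tests).

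The longest gap, of 264.6 kb, ran from 59390 to 324014 near the left end, and the first site of both replicates began right after it, at 324016 and 324043. Only 2 series-level sites lay to the left of it, both weak, at 4.50 or less. The second, of 210.3 kb, ran from 1627439 to 1837712, and 1 replicate 1 site lay in it. The next were at 14334411 to 14476590 (142.2 kb), 9161618 to 9289783 (128.2 kb) and 17067199 to 17180886 (113.7 kb), and no replicate site had its midpoint in them.

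Much of what 1 replicate left empty on X was empty in the other as well. Replicate 1 had 45 gaps over 100 kb on X, 36.2% of its span, and replicate 2 had 44, 34.0% of its span. Of these, 36 and 38 met such a gap of the other replicate, and 26.7% of X lay in a long gap of both. The same counts were not made on the other chromosomes or for gaps placed at random. They therefore do not show that such sharing is particular to X. The longest shared stretches were at 14297624 to 14489808 (192.2 kb), 15841401 to 16024450 (183.1 kb) and 6894463 to 7068320 (173.9 kb). They held 4, 5 and 3 series-level sites, none stronger than 5.46. The longest gap between sites found in both, 329.4 kb at 11607669 to 11937087, held 10 series-level sites, of which replicate 2 listed 3 and replicate 1 none.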

How the data were processed

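Per the labels' protocols, L4 hermaphrodites were crosslinked with 2% formaldehyde, chromatin was sonicated, and tagged NHR-11 was collected with anti-GFP antibodies. The authors deposited 3 site lists: 1 per ChIP replicate and 1 for the series. Per the file headers, coordinates are WS220, and the source column names PeakSeq. The sources used here do not name the aligner, the PeakSeq version, the use of input or the way replicates were combined. All values of column 6, as deposited by the authors, lie below 0.001, and it was taken to hold a p-value or q-value. No column was left unmapped.

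With Python 3.11.15, numpy 2.4.6, pandas 2.3.3 and scipy 1.17.1, sites were shared at an overlap of 1 bp or more, and segments, windows and bins were assigned by midpoint. X was compared with the other 5 chromosomes by two-sided Fisher's exact tests with Benjamini-Hochberg adjustment over 7, and segments of X with their length by two-sided exact binomial tests adjusted over 2. For an alternative, its p replaced the main one in the family. Sites are the units. Neighbouring sites depend on each other, so these are not p-values across replicates. Overlap, gap and window functions were tested on simulated data. Named sites were the 15 strongest, the 5 widest, the strongest per segment and per class of presence, the strongest unpartnered, the weakest and narrowest, the 5 longest gaps and the largest runs. Others named were chosen after their values were seen: pairs far apart, replicate sites outside the series-level list, sites of the fullest bin and shared gaps. The members, lists and tests were chosen with earlier results of these data known.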

Additional observations from a re-analysis of the deposited data

How the results depend on the processing

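Of 62 alternatives, 42 counted as unchanged, 13 lost the call, 2 gained one and 5 changed sign. Unchanged meant the same direction and side of the threshold. For rank agreement, which had no test, it meant a rho within an approximate 95% interval of the main one. Windows of 200 kb, with 0% on X and elsewhere, counted as unchanged though they have no direction. The rank agreement on X (Spearman's rho 0.80 to 0.81 in its 3 alternatives), the replicate 2 share found in replicate 1 and the share in the centre were unchanged in all that were run. Without I and IV, the share of X sites in both replicates, 32.4%, fell below that elsewhere, and the shares in the stronger 50% (46.2%), 1 kb or wider (8.43%) and with a neighbour within 2 kb (36.6%) no longer passed. For the replicate 1 sites found in replicate 2, reciprocal overlap of 50% (72.6%) and midpoints within 100 bp (66.1%) turned a difference that was not called. Midpoints within 100 bp ended the call for sites in both (25.7%). The strongest 10% (9.01%, against 10.2% elsewhere) ended the call for strength. A limit of 2 kb (1.74%) and the sites found in both (17.96%) ended that for 1 kb or wider. Using the sites found in both ended the call for the arms (46.7%). The cause was not tested in any of these.

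With 1 replicate left out, the share found in the remaining one was 42.1% to 44.4%. With 1 replicate's list in place of the series-level list, the share of X sites ran from 10.1% (strongest 10%, where X was marginally above the others, an alternative added after seeing the data) to 45.8% and 49.2% (stronger 50%) for strength, and from 8.31% and 8.86% (1 kb) to 42.0% (500 bp) for width. It was 21.1% to 22.9% for neighbours, 9.09% to 11.4% for empty windows, both of which passed, 31.6% to 34.6% for the centre and 46.0% to 46.3% for the left arm. Windows of 200 kb held at least 1 site on every chromosome. No paired analysis was possible because the groups that share replicate numbers are ChIP and input, and only ChIP sites were analysed here. Genes, GC content and sequence words at the sites, which need the WS220 genome, were not analysed here. Depth is unknown, so a site missing from a list may be too shallow there.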
